A study of Mus musculus with 3 samples.

Results

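The genes described here are 36 components of the machinery that loads, primes and fuses synaptic vesicles. They were taken by name from the deposited gene lists, where all 36 stand among the 30406 genes that the 3 libraries share. The libraries are single-cell RNA sequencing of intrinsic cardiac neurons, the neurons of the ganglia on the atria, from adult mice of both sexes with the genotype Baf53b-cre;lox-GFP. In this genotype Cre from the Baf53b promoter, which is active in neurons, switches on GFP, and GFP-positive cells were sorted by flow cytometry before droplet capture with 10x Genomics 3′ version 3 reagents. The posterior library came from the posterior section of the atria at 4 months, the anterior library from the anterior section at 3 months and the mixed library from atria with no section named at 2 months. The protocol names hearts of 10 mice, and whether libraries share animals is not given in the sources used here. Every library carries the same transgenes, and each region has 1 library, so region, age and library cannot be told apart.

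In the fusion machinery, a vesicle SNARE (Vamp1 or Vamp2) zips together with the plasma membrane SNAREs (Stx1a and Snap25). Synaptotagmins sense calcium, complexins clamp and assist the fusion complex, and Unc13 and Rims proteins prime vesicles at the active zone scaffold of Bsn and Pclo. Vesicle proteins of the Sv2, synapsin and synaptophysin families, Rab3 and Rab27 GTPases with their effectors, and the SNARE recycling pair Nsf and Napb complete the set. Most families hold several paralogues, and which paralogue a cell uses differs between neurons and neuroendocrine cells.

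Neurons were barcodes with at least 10000 unique molecular identifiers (UMIs, each counting 1 captured mRNA molecule) that held Snap25, Prph and Stmn2. There were 1434 in the posterior, 1314 in the anterior and 1970 in the mixed library, with median depths of 57375, 39858.5 and 57390 UMIs. They were divided by class genes, in UMIs per 10000, with at least 2 UMIs asked of Ddah1, Nos1 or Edn3. Npy-low Ddah1 neurons (Npy under 4, Ddah1 at least 1) numbered 435 posterior, 103 anterior and 332 mixed. Nos1 neurons (Nos1 at least 1, at any Npy level) numbered 61, 84 and 55, and Edn3 neurons (Npy at least 4, Edn3 at least 1) numbered 82, 128 and 87 in the same order of libraries. The other Npy neurons, with Npy at least 4 and neither Nos1 nor Edn3 at the limit, were the largest class with 784, 980 and 1481 barcodes. A further 72, 19 and 15 neurons, with Npy under 4 and both Ddah1 and Nos1 below the limit, were left unclassed. Their median depths were 14700, 30270 and 35450 UMIs, and they enter the values over all neurons but no class. The neurons near the Npy limit, with 2 to 8 UMIs per 10000, numbered 79, 26 and 35. All 10 neuron markers examined, among them the gate genes Snap25, Prph and Stmn2, were present in each class. All 10 were also present in the glia-like and Rgs5-Chgb-Slc18a2 barcodes described below, so presence alone does not mark a neuron. Few barcode sequences were shared between libraries, 2 for the anterior and mixed libraries and 3 for each of the other pairs. Doublets were not called, and counts without the 5% deepest neurons are given with the processing.

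A small set of barcodes was chosen by Rgs5 and Chgb (at least 5 per 10000 each) and Slc18a2 (at least 2), and numbered 17 posterior, 7 anterior and 17 mixed, with median depths of 11810, 9759 and 7840 UMIs. Of these, 9, 0 and 1 also met the neuron gate and were kept out of the neurons. Their leading genes were Rgs5, Dlk1, Ndufa4l2, Cox4i2, Chgb, Epas1 and Cldn5. Of markers of chromaffin or small intensely fluorescent cells, Th stood at 7.92, 11.9 and 5.19 UMIs per 10000 and Chga at 33.9, 29.8 and 28.2, while Dbh stood at 0.0550, 0 and 0.519 and Pnmt had no UMI in any library. Of 8 smooth muscle or pericyte markers, 6 (Acta2, Tagln, Myh11, Kcnj8, Abcc9 and Notch3) had no UMI in these barcodes. They are therefore called Rgs5-Chgb-Slc18a2 barcodes after the genes that chose them.

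Intrinsic cardiac neurons held nearly the whole machinery, with a wide spread of levels. Levels are UMIs per 10000, and as 3′ counts they give 1 UMI per captured transcript and need no division by transcript length. Syt1, the fast calcium sensor, had the highest mean in neurons, at 16.2 posterior, 15.4 anterior and 13.1 mixed. Syn2, a synapsin that tethers vesicles in reserve clusters, stood at 10.7, 11.5 and 13.5, and Snap25, which also gated the neurons, at 12.8, 10.96 and 11.6. Syt1 was the highest member in the posterior and anterior libraries and Syn2 in the mixed one, and the order of Syn2 and Snap25 also differed between libraries. Vamp2 averaged 8.40 ± 0.960, Rab3a 7.98 ± 1.35, Syt11 7.52 ± 2.05 and Rab3c 6.90 ± 1.85 (SD, n = 3 libraries), and these neighbours in the order did not differ beyond their spread. The lowest members were Rph3a (rabphilin, an effector of Rab3 and Rab27) at 0.0870 ± 0.0220, Rims1 at 0.0867 ± 0.0195, Unc13b at 0.0579 ± 0.0114 and Syn3 at 0.0545 ± 0.00501 (SD, n = 3 libraries). Sv2b, a vesicle glycoprotein of the brain, had 0.00124 posterior, 0.00135 anterior and 0.00138 mixed UMIs per 10000 in neurons.

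In single neurons Syt1 and Snap25 had like medians across libraries, and Syt1 a wide range within one. With each other Npy neuron thinned to 10000 UMIs, the median count of Syt1 was 15 posterior, 13 anterior and 12 mixed, and that of Snap25 was 11, 10 and 11. Some other members differed more, such as Rab3a with medians of 6, 7 and 9 and Cplx1 with 4, 4 and 2. The middle 90% of other Npy neurons lay between 4 and 31.9 UMIs of Syt1 in the posterior library. Members at about 1 or 2 UMIs per 10000 appeared in a part of the neurons at this depth. Cplx2 was seen in 77.9% posterior, 77.9% anterior and 65.0% mixed of other Npy neurons.

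Some members were also present in other sorted barcodes. Glia-like barcodes (105 posterior, 134 anterior and 84 mixed, with Apoe, Fabp7 and Gpm6b among their leading genes) held Syt11, a synaptotagmin that does not bind calcium, at 6.41, 6.19 and 4.22 UMIs per 10000, against 9.50, 7.67 and 5.40 in neurons. Sv2c stood at 2.35, 2.17 and 1.28 in glia-like barcodes against 2.71, 1.76 and 1.12 in neurons. Syn3 stood at 0.389, 0.379 and 0.360 in glia-like barcodes against 0.0552, 0.0491 and 0.0591 in neurons. Unc13b, an isoform of the priming factor, stood at 0.247, 0.253 and 0.262 against 0.0666, 0.0623 and 0.0450 in neurons. By contrast, Snap25 was at 0.848, 0.960 and 0.458 in glia-like barcodes, and Syt1 at 0.918, 0.657 and 0.229. Low values outside neurons are to be read with care, since free RNA in droplets can reach any barcode and doublets were not called. The source of Snap25 and Syt1 in glia-like barcodes was not tested. Glia-like barcodes put 94.1 ± 3.5% of Sv2 UMIs on Sv2c, against 44.1 ± 2.4% in neurons (SD, n = 3 libraries). For Unc13b the count was 14 of 18 Unc13 UMIs posterior, 10 of 13 anterior and 8 of 8 mixed in glia-like barcodes, with exact binomial 95% intervals of 52.4% to 93.6%, 46.2% to 94.96% and 63.1% to 100%, against a share of 10.4 ± 1.0% in neurons (SD, n = 3 libraries).

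The first comparison asked which members differ between Npy-low Ddah1 and other Npy neurons. Of 35 members tested, 8 rose and 13 fell (22.9% and 37.1%), where 10.8% of all 12250 genes tested were higher and 10.9% lower. The median log2 fold change was -0.09 over the members and 0.00 over all genes. Calls are from edgeR's quasi-likelihood test on UMIs summed per class and library, with library as a block and Benjamini-Hochberg adjusted p under 0.05 over all genes. Sv2b was too low to be tested in any comparison.

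Npy-low Ddah1 neurons carried more of the slow calcium sensor Syt7, which serves asynchronous release and vesicle replenishment. Its level was 0.453 posterior, 0.270 anterior and 0.201 mixed in Npy-low Ddah1 neurons, against 0.112, 0.0728 and 0.0487 in other Npy neurons. The lowest Npy-low Ddah1 library stood above the highest library of the other Npy neurons, and the fitted log2 fold change was 1.99 ± 0.12 (SE, edgeR adjusted p = 5.193e-10). Even so, Syt7 made up 1.21%, 0.893% and 0.740% of synaptotagmin UMIs in Npy-low Ddah1 neurons, and 0.354%, 0.263% and 0.212% in other Npy neurons. With each neuron thinned to 10000 UMIs it was seen in 36.1%, 18.4% and 18.7% of Npy-low Ddah1 neurons against 11.9%, 8.06% and 4.66% of other Npy neurons. Syt4, a synaptotagmin of dense-core vesicles, also rose, at 6.62, 4.36 and 5.25 against 4.15, 2.88 and 3.05 (log2 0.67 ± 0.09, SE, edgeR adjusted p = 3.112e-05). Syt9 fell, at 0.405, 0.369 and 0.242 against 0.675, 0.574 and 0.404 (log2 -0.73 ± 0.08, SE, edgeR adjusted p = 2.571e-06). The leading sensor Syt1 was not called, with 17.7, 15.5 and 13.9 against 15.6, 14.9 and 12.8 (log2 0.10 ± 0.10, SE).

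The complexin paralogues moved in opposite directions. Cplx2 stood at 0.685 posterior, 0.627 anterior and 0.330 mixed in Npy-low Ddah1 neurons, against 2.03, 1.95 and 1.22 in other Npy neurons (log2 -1.72 ± 0.14, SE, edgeR adjusted p = 3.25e-08). No library overlapped between the classes. Cplx1 was higher, at 5.72, 4.88 and 2.77 against 4.25, 3.93 and 2.24 (log2 0.33 ± 0.09, SE, edgeR adjusted p = 0.01407). That call on Cplx1 was lost without the posterior library or without the anterior library. Cplx2 took 10.7%, 11.4% and 10.7% of complexin UMIs in Npy-low Ddah1 neurons, and 32.4%, 33.2% and 35.2% in other Npy neurons. The complexin pair was also read in single neurons. With each neuron thinned to 10000 UMIs, Cplx1 without Cplx2 was seen in 50.1%, 57.3% and 69.3% of Npy-low Ddah1 neurons against 20.8%, 20.8% and 30.0% of other Npy neurons. The share with both was 47.6%, 39.8% and 22.6% against 74.2%, 75.1% and 56.9%. A neuron that holds Cplx2 at such low levels can show no UMI at this depth. These shares therefore follow the class levels and do not count neurons that lack Cplx2. With 3 libraries an exact paired permutation test of a share cannot go below a two-sided p of 0.25, so shares are given without a test.

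The promoter windows of the complexin pair and of Sv2c are shown because the complexins moved in opposite directions and Sv2c was called in each comparison. Each runs from 250 bases before to 50 after a transcription start in the RefSeq annotation of GRCm38.p6, in the direction of the gene. Capitals mark the GC box, GGGCGG on either strand. The other motifs searched on both strands (TGACGTCA for the CRE, CACGTG for the E-box, TATAAA for the TATA box) had no match in these windows, so no matches overlap here. Of 32851 promoter windows of this length, 35.7% hold a GC box, 1.79% a CRE, 7.15% an E-box and 13.6% a TATA box. Among the 37 windows found for 27 of the 36 members, 62.2% hold a GC box, 2.7% a CRE, 8.11% an E-box and 8.11% a TATA box. Some members have more than 1 window. The Cplx1 window (chr5:108549978-108550277, minus strand) holds 2 GC boxes and its start lies 4 bases from the 5′ end of the gene in GENCODE.
Cplx1: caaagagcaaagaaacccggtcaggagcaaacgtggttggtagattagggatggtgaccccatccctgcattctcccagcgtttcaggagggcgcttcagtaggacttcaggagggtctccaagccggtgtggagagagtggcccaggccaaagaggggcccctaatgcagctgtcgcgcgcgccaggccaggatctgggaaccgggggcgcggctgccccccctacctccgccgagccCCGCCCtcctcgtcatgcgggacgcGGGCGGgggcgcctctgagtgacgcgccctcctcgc
The Cplx2 window (chr13:54302306-54302605, plus strand) holds none, and its start lies 68794 bases before the GENCODE 5′ end, so it belongs to a longer transcript model.
Cplx2: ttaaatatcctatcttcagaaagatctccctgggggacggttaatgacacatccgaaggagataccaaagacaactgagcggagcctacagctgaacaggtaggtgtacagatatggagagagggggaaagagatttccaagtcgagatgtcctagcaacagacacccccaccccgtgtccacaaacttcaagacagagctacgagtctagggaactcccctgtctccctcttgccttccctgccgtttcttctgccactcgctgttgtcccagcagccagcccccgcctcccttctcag
The Sv2c window (chr13:96132528-96132827, minus strand) holds 2 GC boxes and starts 1 base from the GENCODE 5′ end.
Sv2c: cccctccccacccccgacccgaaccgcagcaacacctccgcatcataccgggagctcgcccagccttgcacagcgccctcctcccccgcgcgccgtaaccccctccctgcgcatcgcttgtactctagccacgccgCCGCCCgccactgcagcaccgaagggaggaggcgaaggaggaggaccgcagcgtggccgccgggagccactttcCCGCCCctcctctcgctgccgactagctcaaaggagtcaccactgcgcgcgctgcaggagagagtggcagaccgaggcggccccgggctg
These matches describe the letters only.

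Vesicle glycoproteins and GTPases differed in the same classes. Sv2c, a glycoprotein that binds synaptotagmin, stood at 3.87 posterior, 2.85 anterior and 2.02 mixed in Npy-low Ddah1 neurons, against 2.10, 1.56 and 0.912 in other Npy neurons (log2 0.95 ± 0.14, SE, edgeR adjusted p = 3.483e-05). Its neuron classes overlapped across libraries, and within each library the Npy-low Ddah1 neurons were higher. Sv2a, the paralogue of wide use, rose by less (log2 0.40 ± 0.09, SE, edgeR adjusted p = 0.002432). Rab3c, a vesicle GTPase, stood at 13.4, 10.6 and 9.58 against 6.87, 5.50 and 4.75 (log2 0.95 ± 0.09, SE, edgeR adjusted p = 2.886e-07), with no overlap. Its relatives went down, Rab3b by log2 -0.75 ± 0.09 (SE, edgeR adjusted p = 8.069e-06) and Rab3d by log2 -0.66 ± 0.08 (SE, edgeR adjusted p = 3.377e-06). Rab3a, the leading paralogue of other Npy neurons, was not called at 7.20, 8.07 and 9.48 against 6.95, 7.76 and 9.46. Rab3c held 60.6%, 52.3% and 47.1% of Rab3 UMIs in Npy-low Ddah1 neurons, and 41.9%, 34.6% and 29.4% in other Npy neurons.

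Rab27b, a GTPase of secretory vesicle docking, stood at 0.172 posterior, 0.239 anterior and 0.216 mixed in Npy-low Ddah1 neurons, against 0.478, 0.461 and 0.5997 in other Npy neurons (log2 -1.38 ± 0.09, SE, edgeR adjusted p = 3.4e-09). Doc2b, a high-affinity calcium sensor of spontaneous release, stood at 0.330, 0.388 and 0.229 against 0.773, 0.679 and 0.518 (log2 -1.12 ± 0.10, SE, edgeR adjusted p = 1.017e-07). Neither overlapped between the classes. Priming and scaffold genes shared in the lower side, with Rims1 (log2 -0.72), Rims2 (-0.33), Unc13b (-0.49) and Pclo (-0.34) called and Unc13a (-0.14) and Bsn (-0.15) not called. The synapsin Syn2 (log2 -0.56) and the SNARE Stx1a (-0.52) fell as well. The call on Syn3 (-0.49) was lost in 4 other settings, thinning among them, and without the posterior library, and that on Unc13b in 4 other settings and without the posterior or the anterior library. Nsf, the ATPase that takes spent SNARE complexes apart, and Snap25 were higher by log2 0.36 and 0.26, and the call on Snap25 was lost in 3 other settings, thinning among them, and without the posterior or the anterior library. The level of glial markers other than Ngfr was 0.544, 0.428 and 0.392 per 10000 in the median Npy-low Ddah1 neuron and 0.376, 0.258 and 0.216 in the median other Npy neuron, and its part in these differences was not tested. Without neurons of at least 10 such UMIs per 10000, 8 members were higher and 11 lower. Over all genes 2616 were then called, against 2649 with these neurons. Of the 21 calls, 13 held whichever library was left out, and without the posterior library 13 members were called, with those on Sv2a, Nsf, Pclo and Rims2 among the calls lost. Pclo was also lost without the anterior library.

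**Figure D1:**
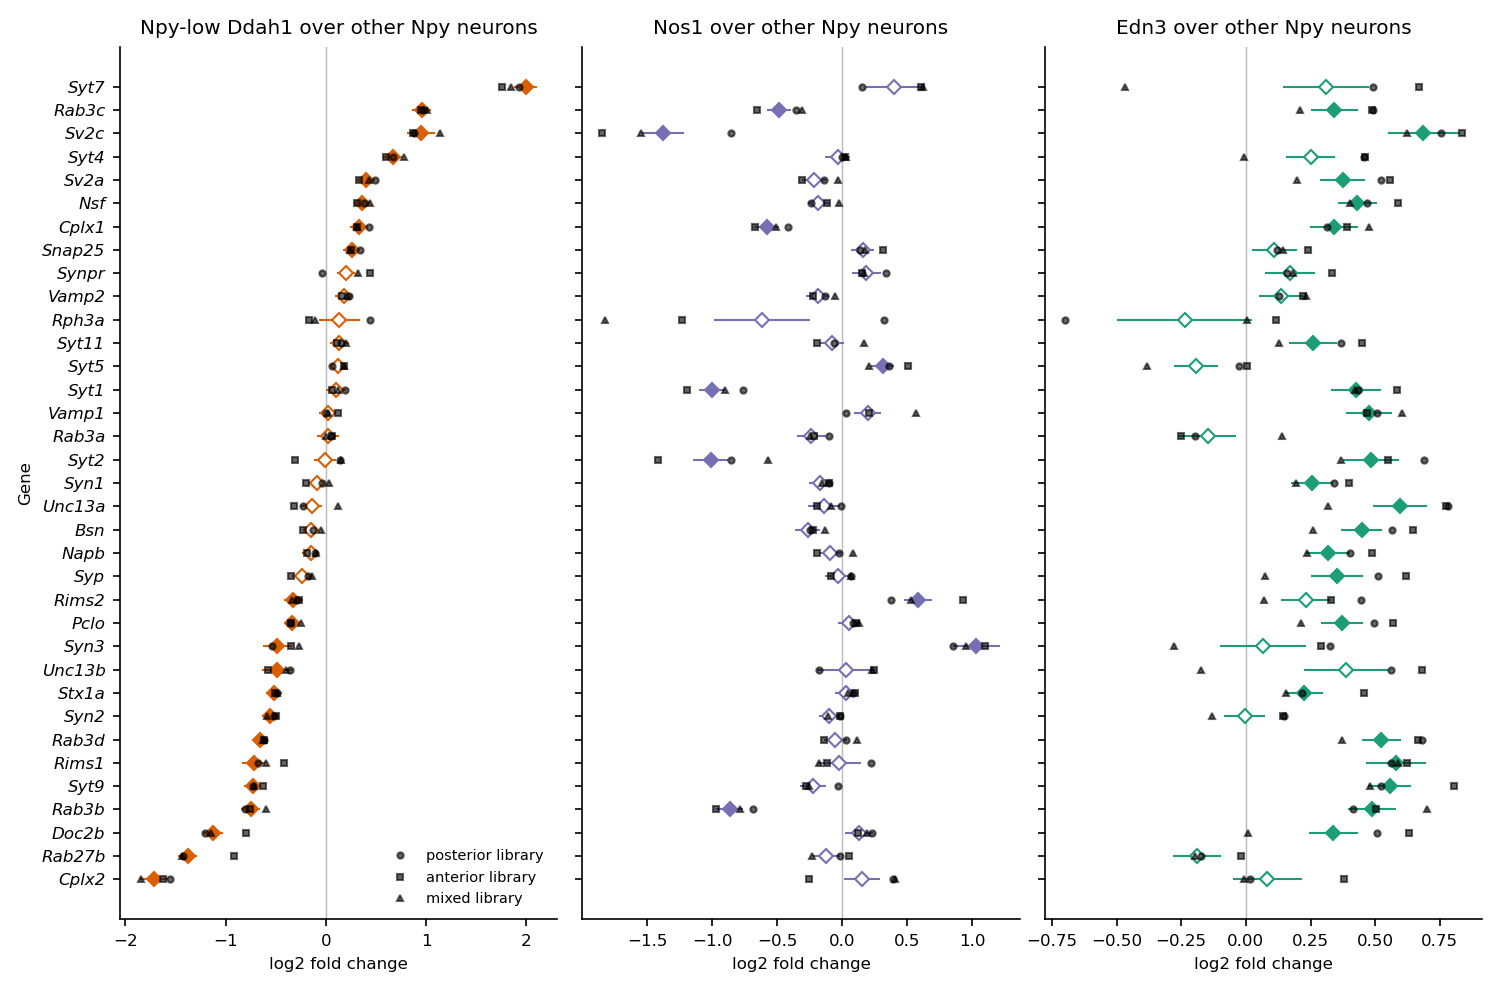
Log2 fold changes (horizontal axes) of the 35 tested genes (rows, in the order of the left panel) in Npy-low Ddah1, Nos1 and Edn3 neurons, each over the other Npy neurons. Diamonds are fitted values with SE bars, filled where the edgeR adjusted p was under 0.05, and small black symbols are the ratios within each library. Syt7 stands at 1.99 and Cplx2 at -1.72 in the left panel, Sv2c at -1.38 in the middle panel, and the called genes of the right panel all lie above 0.

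Nos1 neurons, which hold the neuronal nitric oxide synthase, had less of the calcium sensors Syt1 and Syt2 and of Sv2c. Of 35 members tested, 3 rose and 6 fell (8.57% and 17.1%), where 5.31% of all 12250 genes tested were higher and 3.22% lower (8.52% in all). The median log2 fold change was -0.09 over the members and -0.01 over all genes. Syt1 stood at 9.17 posterior, 6.51 anterior and 6.82 mixed in Nos1 neurons, against 15.6, 14.9 and 12.8 in other Npy neurons (log2 -1.001 ± 0.10, SE, edgeR adjusted p = 1.434e-06). Syt2, the second fast sensor, stood at 0.532, 0.352 and 0.428 against 0.971, 0.956 and 0.642 (log2 -1.01 ± 0.13, SE, edgeR adjusted p = 3.638e-05). All 3 Nos1 libraries lay below all 3 of the other Npy neurons for both genes. Syt9 was not called, at 0.660 posterior, 0.472 anterior and 0.337 mixed against 0.675, 0.574 and 0.404. Within the synaptotagmin family, Syt1 took 37.3%, 35.9% and 38.8% in Nos1 neurons and 49.3%, 53.9% and 55.7% in other Npy neurons.

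Within each library Sv2c was lower in Nos1 neurons than in any other neuron class. It stood at 1.16 posterior, 0.427 anterior and 0.306 mixed, against 2.10, 1.56 and 0.912 in other Npy neurons (log2 -1.38 ± 0.16, SE, edgeR adjusted p = 8.909e-06). The posterior Nos1 value was above the mixed value of the other Npy neurons, so the classes overlapped across libraries but not within one. Sv2c held 31.9%, 18.7% and 19.1% of Sv2 UMIs in Nos1 neurons, against 43.5%, 40.3% and 40.9% in other Npy neurons, and Sv2a was not called (log2 -0.22 ± 0.09, SE). Cplx1 (log2 -0.58 ± 0.10, SE, edgeR adjusted p = 0.0004807), Rab3b (-0.87 ± 0.10, SE, edgeR adjusted p = 1.226e-05) and Rab3c (-0.49 ± 0.09, SE, edgeR adjusted p = 0.00191) also fell, and the calls on Cplx1 and Rab3c were lost without the anterior library. Cplx2 was not called (log2 0.15 ± 0.14, SE), and its share of complexin UMIs was 45.7%, 39.8% and 50.7% in Nos1 neurons, against 32.4%, 33.2% and 35.2% in other Npy neurons.

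Higher in Nos1 neurons were Rims2, an active zone organiser, Syn3 and Syt5. Rims2 stood at 0.429 posterior, 0.580 anterior and 0.367 mixed, against 0.329, 0.300 and 0.251 in other Npy neurons (log2 0.58 ± 0.11, SE, edgeR adjusted p = 0.001718), a call lost without the anterior library. Syn3, a minor synapsin here, stood at 0.112, 0.109 and 0.126 against 0.0578, 0.0452 and 0.0602 (log2 1.03 ± 0.18, SE, edgeR adjusted p = 0.0008187), and with neurons thinned to 10000 UMIs it was not called (edgeR adjusted p = 0.0647). Glia-like barcodes hold more Syn3 than either class, and glial markers other than Ngfr stood at 0.323, 0.278 and 0.163 per 10000 in the median Nos1 neuron, against 0.376, 0.258 and 0.216 in the median other Npy neuron. Syt5 (log2 0.31 ± 0.09, SE, edgeR adjusted p = 0.03376) was called in the fit with all libraries and lost without the posterior or the anterior library. Syt7 was not called in Nos1 neurons (log2 0.40 ± 0.22, SE). Without the anterior library 5 members were called and without the mixed library 15, against 9 with all libraries. Over all genes these fits called 438, 1507 and 1044 in the same order.

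Edn3 neurons carried more of many members at once. Of 35 tested, 21 were called higher and 0 lower (60.0% and 0%), where 15.1% of all 12250 genes tested were higher and 9.91% lower. The median log2 fold change was 0.34 over the members and 0.02 over all genes. At an unadjusted p under 0.05, edgeR had 1 member lower, and DESeq2 called 22 higher and 1 lower. The highest by log2 fold change were Sv2c (0.69 ± 0.14), Unc13a (0.60 ± 0.10), Rims1 (0.58 ± 0.11), Syt9 (0.56 ± 0.08), Rab3d (0.52 ± 0.08) and Rab3b (0.49 ± 0.09), each with its SE and higher in 3 of 3 libraries. The called members with the smallest fitted changes were Stx1a (log2 0.23), the synapsin Syn1 (0.25), Syt11 (0.26), Napb (0.32), Doc2b (0.34) and Cplx1 (0.34). Between these ends lay, among others, the scaffold gene Bsn (0.45), Nsf (0.43) and the SNARE Vamp1 (0.47).

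Unc13a, the main priming factor of these neurons, stood at 1.09 posterior, 0.909 anterior and 0.419 mixed in Edn3 neurons, against 0.632, 0.527 and 0.334 in other Npy neurons (edgeR adjusted p = 0.000706). Sv2c stood at 3.56, 2.79 and 1.41 against 2.10, 1.56 and 0.912 (edgeR adjusted p = 0.002037). Syt1 stood at 21.02, 22.3 and 17.1 against 15.6, 14.9 and 12.8 (log2 0.42 ± 0.10, SE, edgeR adjusted p = 0.004877), the highest level of any member in any neuron class. Edn3 neurons were also deeper, with median depths of 66580, 47510 and 83380 UMIs against 59170, 39810 and 56750 in other Npy neurons, and with every neuron thinned to 10000 UMIs 18 members were higher. Without neurons of at least 10 UMIs per 10000 of glial markers, Ngfr included, 15 members were higher and 1 lower, and the members' median log2 fold change was 0.19. Ngfr stood at 7.85, 7.22 and 3.83 against 3.80, 3.38 and 2.23, while glial markers other than Ngfr in the median neuron stood at 0.432, 0.265 and 0.184 against 0.376, 0.258 and 0.216, and the part of depth in the result was not tested beyond the thinned counts.

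The Edn3 calls rested most on the anterior and posterior libraries, and on comparing within libraries. Of the 21 calls, 5 held whichever library was left out. The ratio of Sv2a within a library was log2 0.52 in the posterior, 0.56 in the anterior and 0.20 in the mixed library, and that of Doc2b was 0.51, 0.63 and 0.0098. Called members numbered 6 without the anterior library, 9 without the posterior and 25 without the mixed, of which 1 was lower. The calls on Sv2c, Rab3b and Syt1 were lost without the anterior library, that on Syt1 also without the posterior one, and that on Rims1 with thinned neurons. Without the library block edgeR called 0, with 7 higher and 0 lower at an unadjusted p under 0.05. Among the 14 members not called were Syn2 (log2 0.00 ± 0.08), Cplx2 (0.08 ± 0.13) and Snap25 (0.11 ± 0.09, SE each). Syt4 was not called either, at 5.70 posterior, 3.97 anterior and 3.03 mixed against 4.15, 2.88 and 3.05 in other Npy neurons.

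**Figure D2:**
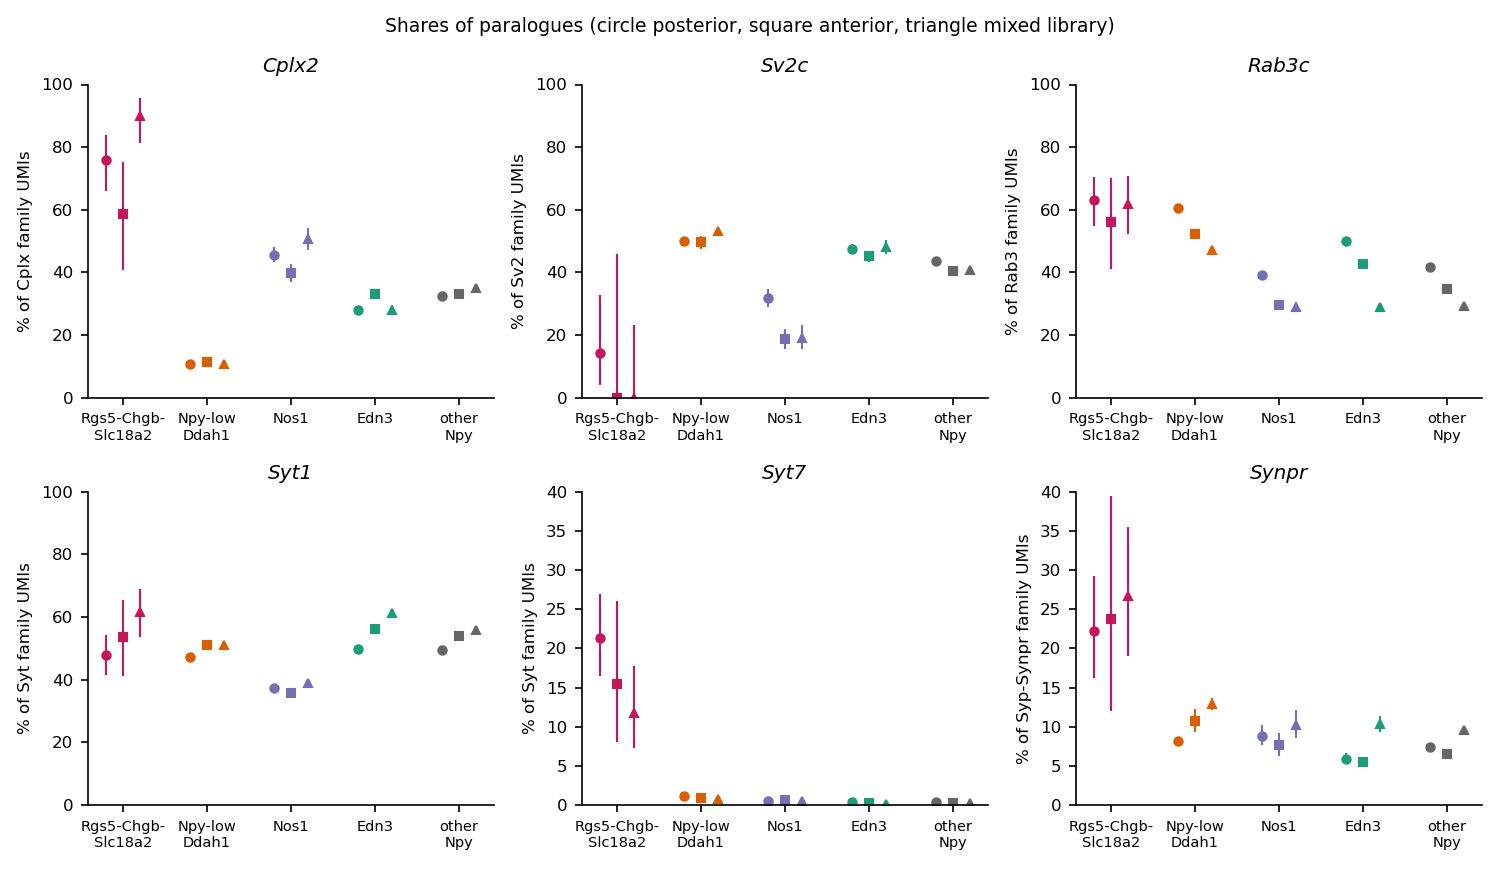
Share of the UMIs of a paralogue family (vertical axes, %) held by Cplx2, Sv2c, Rab3c, Syt1, Syt7 and Synpr in the Rgs5-Chgb-Slc18a2 barcodes and the 4 neuron classes, with 1 point per library and exact binomial 95% intervals. Cplx2 lies near 11% in Npy-low Ddah1 neurons and between 58.8% and 90% in Rgs5-Chgb-Slc18a2 barcodes, and the lower panels of Syt7 and Synpr have axes that end at 40%.

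Rgs5-Chgb-Slc18a2 barcodes held less of most tested members than neurons. Of 34 members tested, 3 rose (Syt7, Synpr and Cplx2) and 23 fell (8.82% and 67.6%), where 7.52% of all 13546 genes tested were higher and 17.4% lower. The share of members that rose was thus near that of all genes. The median log2 fold change was -1.88 over the members and -0.43 over all genes under TMM scaling. That median over all genes was -0.27 with RLE factors, -0.03 with DESeq2 and -0.35 with no factor beside total UMIs, and each fold change below is to be read against it. Snap25 gated the neurons and was not tested. These barcodes sum to 181886 posterior, 59700 anterior and 134901 mixed UMIs, so low members rest on few molecules.

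Syt7 stood at 2.91 posterior, 1.84 anterior and 1.41 mixed UMIs per 10000 in these barcodes, against 0.225, 0.0989 and 0.0748 in neurons (log2 3.50 ± 0.32, SE, edgeR adjusted p = 1.534e-26). It made up 21.4%, 15.5% and 11.8% of synaptotagmin UMIs there, with exact binomial 95% intervals of 16.4% to 27.0%, 7.996% to 26.0% and 7.26% to 17.8%. Syt7 is known as one of the calcium sensors of hormone release in adrenal chromaffin cells. Synpr (synaptoporin), a synaptophysin relative, stood at 2.09, 1.67 and 2.37 against 0.440, 0.369 and 0.452 (log2 1.79 ± 0.28, SE, edgeR adjusted p = 2.567e-09). Cplx2 stood at 3.96, 3.35 and 5.34 against 1.61, 1.88 and 1.07 (log2 1.04 ± 0.24, SE, edgeR adjusted p = 9.762e-05), and its share of complexin UMIs was 75.8%, 58.8% and 90%. Every one of these 9 library values lay above all 3 neuron values of its gene.

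Detection was set beside that in glia-like barcodes, with each barcode thinned to 2000 UMIs, and free RNA itself was not measured. Cplx2 was seen in 52.9% posterior, 57.1% anterior and 76.5% mixed of Rgs5-Chgb-Slc18a2 barcodes, against 8.51%, 6.33% and 6.35% of glia-like barcodes. Syt7 was seen in 52.9%, 14.3% and 17.6% against 2.13%, 0% and 0%. Synpr was seen in 41.2%, 28.6% and 35.3% against 0% in each glia-like library, which allows up to 3.19%, 3.80% and 4.76%. Unthinned, Cplx2 was seen in 76.5%, 100% and 100% of the Rgs5-Chgb-Slc18a2 barcodes and in 17.1%, 10.4% and 8.33% of the glia-like ones, whose median depths were 5405, 2410 and 3048 UMIs. The thinned glia-like shares are over 94, 79 and 63 barcodes, after 11, 55 and 21 with under 2000 UMIs were left out. With every barcode thinned to 1000 UMIs before summing, edgeR called none of the 3 (0 higher, 15 lower of 30 tested, with 1 higher at an unadjusted p under 0.05), while DESeq2 on the full sums called 3 higher and 22 lower.

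Of the 23 lower members, Syt1 stood at 6.54 posterior, 6.37 anterior and 7.34 mixed, against 16.2, 15.4 and 13.1 in neurons (log2 -1.64 ± 0.21, SE, edgeR adjusted p = 3.186e-13), and it was still the leading synaptotagmin. Syt11 stood at 1.32, 1.01 and 1.11 against 9.50, 7.67 and 5.40 (log2 -3.16 ± 0.27, SE, edgeR adjusted p = 2.769e-29). Napb, the neuronal SNARE adaptor of Nsf, stood at 0.440, 0 and 0.371 against 4.66, 3.90 and 3.51 (log2 -4.09 ± 0.35, SE, edgeR adjusted p = 2.203e-29), and at 2000 UMIs it was seen in 11.8%, 0% and 17.6% of these barcodes against 6.38%, 6.33% and 6.35% of glia-like ones. Sv2c was lower (log2 -4.71 ± 0.49, SE, edgeR adjusted p = 2.896e-20), with 4 UMIs in the posterior and 0 in the anterior and mixed barcodes. Syt5 (log2 -3.98 ± 0.57, SE, edgeR adjusted p = 6.45e-11) and Rab3a (-2.12 ± 0.24, SE, edgeR adjusted p = 3.205e-17) were lower in 3 of 3 libraries. The Syt5 value rests on 2 posterior, 1 anterior and 0 mixed UMIs in these barcodes, under the floor of 3 counts in each library.

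5 members, Syt2, Rab27b, Rims1, Syn3 and Sv2b, had no UMI among the 376487 of these barcodes. Against a floor of 3 UMIs over the group, 0.0797 per 10000, Syt2 was at least 10.5-fold lower and Rab27b at least 5.76-fold lower than in neurons. Rims1 was at least 1.04-fold lower, and its call was lost in 4 other settings and in each of the 3 fits that left out a library. Syn3 and Sv2b lie under the floor in neurons too, so no fold is given.

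Of the members tested, 8 were not called in these barcodes. Syp, the major vesicle membrane protein and a marker of neuroendocrine cells, stood at 7.31 posterior, 5.36 anterior and 6.52 mixed against 5.39, 5.13 and 3.97 in neurons (log2 -0.07 ± 0.22, SE, not called). Its sign depended on scaling, since the plain ratios of levels were above 1 in 3 of 3 libraries. Rims2 stood at 0.715, 0.838 and 0.519 against 0.320, 0.318 and 0.245 (log2 0.71 ± 0.39, SE, not called). Rab3c was called lower by log2 -0.93 ± 0.22 (SE, edgeR adjusted p = 0.0002014) and stood at 5.33, 4.69 and 5.19 against 9.02, 6.09 and 5.60. It held 63.0%, 56.0% and 61.9% of Rab3 UMIs in these barcodes. Doc2b, Unc13a, Unc13b, Vamp1, Rph3a and Syn3 were not called either.

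**Figure D3:**
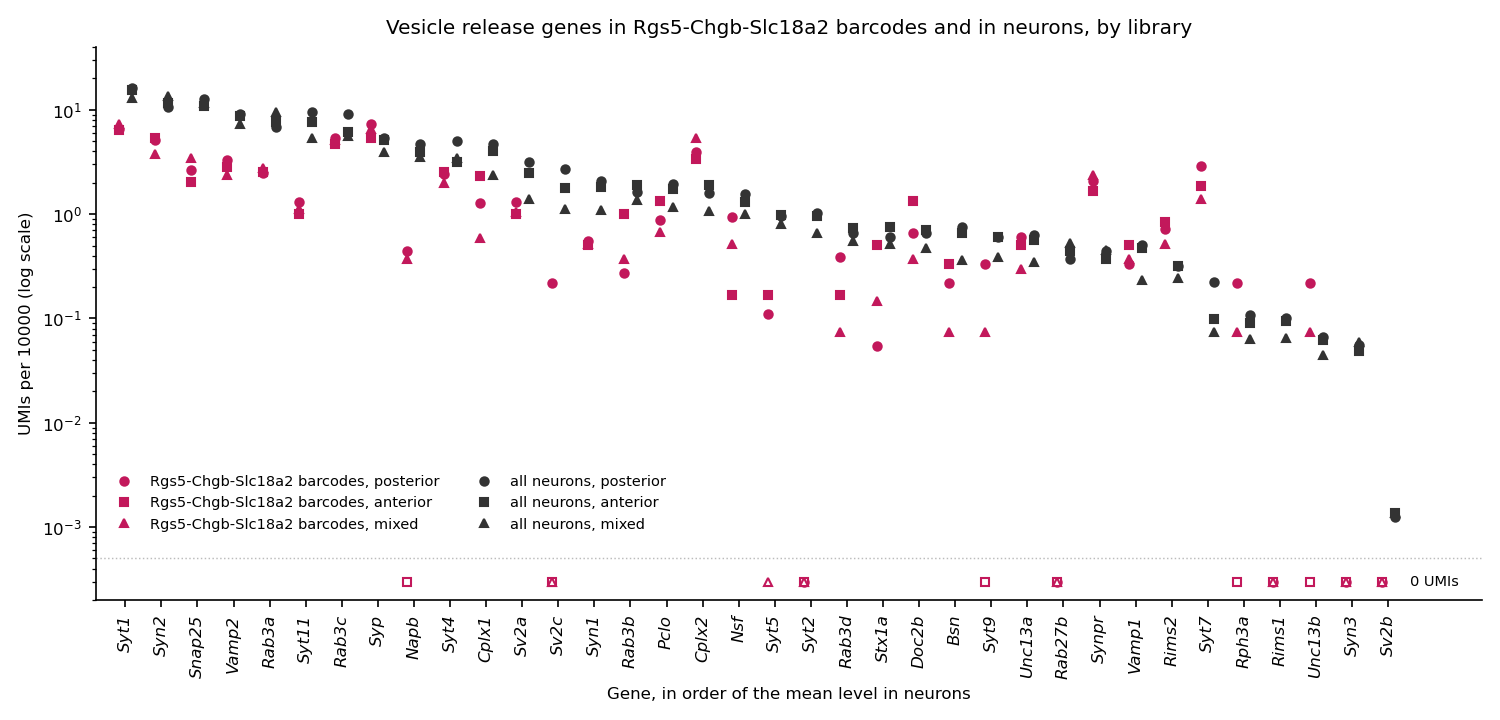
Level of each of the 36 genes (vertical axis, UMIs per 10000, log scale) in Rgs5-Chgb-Slc18a2 barcodes and in all neurons of the posterior, anterior and mixed libraries, with genes in the order of their mean in neurons. Open symbols on the lowest line are libraries with 0 UMIs. Syt7, Synpr and Cplx2 stand above the neurons in every library, and Syt2, Rab27b, Rims1, Syn3 and Sv2b have no UMI in the Rgs5-Chgb-Slc18a2 barcodes.

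Posterior and anterior neurons were set side by side without a test, since each region has 1 library. Over all neurons, 3 of 33 members with at least 10 CPM (UMIs scaled to a common total) were over 1.5-fold higher in posterior neurons and 0 were lower, where 1.42% of 8241 genes were higher and 0.231% lower. The 3 were Syt7, Syt4 and Sv2c. Syt7 stood at 0.225 in posterior and 0.0989 in anterior neurons, a ratio of 2.27 (exact Poisson 95% interval 2.06 to 2.51, counting error only). Syt4 stood at 5.004 and 3.14, a ratio of 1.59 (1.57 to 1.62), and Sv2c at 2.71 and 1.76, a ratio of 1.54 (1.501 to 1.58). Rab3c followed with 1.48 (1.46 to 1.501). These genes were also higher in Npy-low Ddah1 than in other Npy neurons, and Npy-low Ddah1 neurons were 30.3% of posterior and 7.84% of anterior neurons. The part of class shares in these ratios was not tested. The members' median log2 ratio was 0.11 over all neurons. It was 0.25 within Npy-low Ddah1, 0.29 within Nos1, 0.09 within Edn3 and 0.18 within other Npy neurons. With TMM factors 1 member was past 1.5-fold.

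Within Npy-low Ddah1 neurons and within other Npy neurons the region ratios of these 4 genes were closer to 1 than over all neurons. Among Npy-low Ddah1 neurons the ratio was 1.67 for Syt7 (1.38 to 2.05), 1.52 for Syt4 (1.45 to 1.59), 1.36 for Sv2c (1.28 to 1.44) and 1.27 for Rab3c (1.23 to 1.31). In this class 3 members were past 1.5-fold, Rph3a being the other, and 0 lower, against 1.87% and 0.683% of genes. Among other Npy neurons 0 of 32 members were past 1.5-fold in either direction on the log2 scale with 1 CPM added, against 0.382% of genes higher and 0.0985% lower, and the plain ratio was 1.53 for Syt7 (1.32 to 1.78), 1.44 for Syt4 (1.41 to 1.47), 1.35 for Sv2c (1.31 to 1.39) and 1.25 for Rab3c (1.23 to 1.27). Nos1 neurons had 5 of 34 members higher and 0 lower, against 6.31% and 2.64% of genes. There Sv2c at 2.72 (2.19 to 3.38) and Rab3c at 1.54 (1.42 to 1.67) were above their ratios over all neurons. Syt4 at 1.41 (1.29 to 1.55) and Syt7 at 1.08 (0.655 to 1.80) were below theirs. Edn3 neurons had 0 higher, against 2.31% of genes, and 1 lower, against 0.858%, which was Rph3a on 31 posterior and 60 anterior UMIs.

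At the low end over all neurons were Stx1a at 0.799 (0.766 to 0.833), Rab27b at 0.839 (0.794 to 0.886), Rab3b at 0.848 (0.826 to 0.870) and Cplx2 at 0.855 (0.832 to 0.878). Cplx2 had a ratio of 1.04 (1.01 to 1.07) among other Npy neurons and 1.09 (0.958 to 1.25) among Npy-low Ddah1 neurons. In the smaller classes it was 0.809 (0.748 to 0.875) among Edn3 neurons and 1.64 (1.45 to 1.84) among Nos1 neurons. Stx1a stayed under 1 in other Npy neurons, with 0.894 (0.849 to 0.942).

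**Figure D4:**
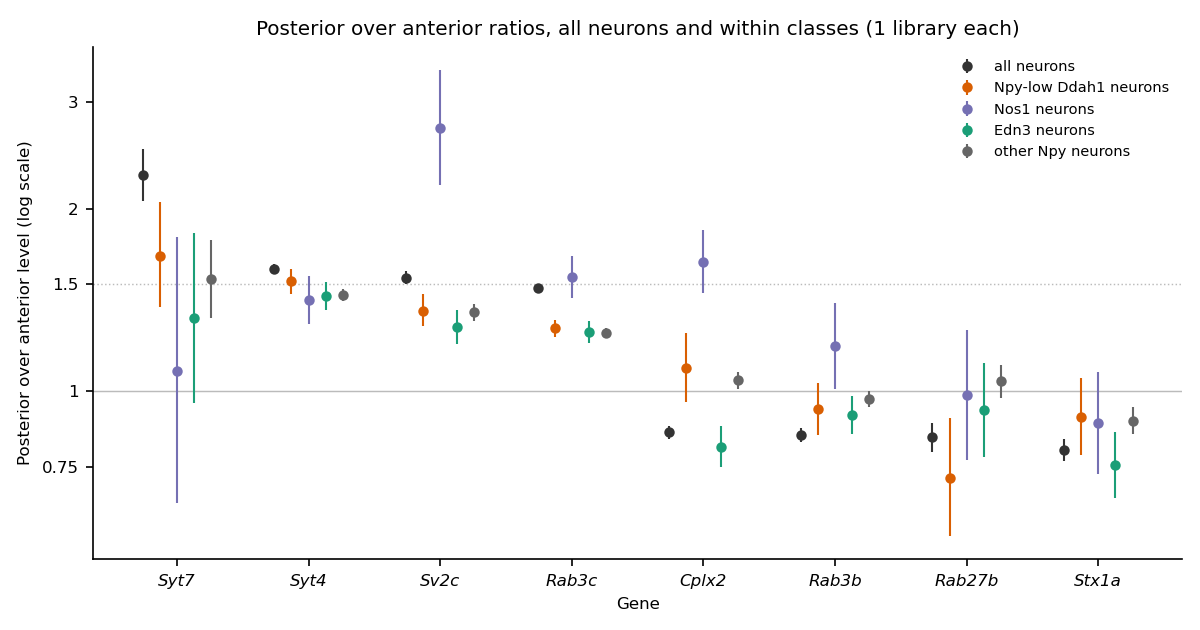
Posterior over anterior ratio of levels (vertical axis, log scale) for the 4 highest and 4 lowest of the genes, over all neurons and within each class, with exact Poisson 95% intervals that cover counting error only. Each region is 1 library. The dotted line is 1.5-fold. Cplx2, at 0.855 over all neurons, lies at 1.04 among other Npy, 1.09 among Npy-low Ddah1, 0.809 among Edn3 and 1.64 among Nos1 neurons.

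Other genes of the pathway were read from a list of 61 fusion and active zone partners and a list of 28 genes of endocytosis and recycling. In Npy-low Ddah1 neurons 8 of 48 tested partners rose and 11 fell (16.7% and 22.9%, where 10.8% of all genes were higher and 10.9% lower), with Syt13 (log2 1.53 ± 0.14, SE, edgeR adjusted p = 1.8e-07) and Stxbp2 highest and Cadps2 (5, 0 and 1 UMIs) and Stxbp5l (a tomosyn, which restrains SNARE assembly, log2 -1.90 ± 0.14, SE, edgeR adjusted p = 5.36e-09) lowest. The median log2 fold change of these partners was -0.07. Of 27 recycling genes (median -0.01) 2 rose, Amph and Atp6v1b2, and 1 fell, Snap91 (7.41% and 3.70%, under the shares of all genes). Atp6v1b2, a subunit of the proton pump that fills vesicles, stood at 10.8 posterior, 8.17 anterior and 8.73 mixed against 6.73, 6.24 and 5.19 in other Npy neurons (log2 0.59 ± 0.10, SE, edgeR adjusted p = 0.0001838).

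In Nos1 neurons 7 of 48 partners rose and 2 fell (14.6% and 4.17%, where 5.31% of all genes were higher and 3.22% lower), with a median log2 fold change of -0.05. The highest was Syt6 at 0.201 posterior, 0.326 anterior and 0.229 mixed against 0.0178, 0.00936 and 0.0146 (log2 4.11 ± 0.27, SE, edgeR adjusted p = 7.915e-09). Vamp8, a SNARE better known from endosomes and exocrine granules, stood at 0.224, 0.401 and 0.275 against 0.0713, 0.104 and 0.0913 (log2 1.69 ± 0.12, SE, edgeR adjusted p = 1.911e-08). Of 27 recycling genes 2 rose and 2 fell (7.41% each). In Edn3 neurons 10 of 48 partners rose and 3 fell (20.8% and 6.25%, where 15.1% of all genes were higher and 9.91% lower), with a median log2 of 0.10. There 14 of 27 recycling genes rose and 0 fell (51.9% and 0%, median log2 0.25), with Dnajc6 highest (log2 0.50 ± 0.09, SE, edgeR adjusted p = 0.0006772).

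In Rgs5-Chgb-Slc18a2 barcodes 9 of 51 partners rose and 18 fell (17.6% and 35.3%, where 7.52% of all genes were higher and 17.4% lower), with a median log2 fold change of -1.11, against -0.43 over all genes. Sytl4 (granuphilin), an effector of Rab27 that docks dense-core vesicles, stood at 5.83 posterior, 6.20 anterior and 6.82 mixed against 0.0725, 0.0455 and 0.0520 in neurons (log2 6.28 ± 0.26, SE, edgeR adjusted p = 2.943e-120). Sytl1 had 9, 1 and 2 UMIs in these barcodes and 8, 3 and 3 in all neurons. Syt17 had 1 UMI in all of these barcodes, while it stood at 0.807, 0.728 and 0.487 per 10000 in neurons. Of 28 recycling genes 1 rose and 20 fell (3.57% and 71.4%, median log2 -1.23), with Dnm3 (log2 -3.65 ± 0.37, SE, edgeR adjusted p = 2.821e-21) lowest and Dnm2, the dynamin used by most cell types, higher (log2 1.31 ± 0.42, SE, edgeR adjusted p = 0.0107).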

How the data were processed

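Single-cell RNA sequencing of sorted cardiac neurons was analysed from 3 libraries. The deposited values are raw UMI counts per gene and barcode. The authors made them with Cell Ranger 3.1.0 (mixed) and 6.1.2 (anterior and posterior), per the file headers, and the submitters' processing notes also name Cell Ranger 7.1.0, Seurat 4.4.2 and mm10. Strand handling and intron counting are not given in the sources used here. Library totals were 86391988 posterior, 55329380 anterior and 119825307 mixed UMIs.

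Barcodes with at least 1000 UMIs, 500 genes and at most 20% mitochondrial UMIs were kept (2624, 2029 and 2438). UMIs were summed per class and library and tested with edgeR 4.0.16 (R 4.3.3; quasi-likelihood, TMM, filterByExpr, library as a block, Benjamini-Hochberg adjusted p under 0.05), with DESeq2 1.42.0 as an alternative. Classes of 1 library come from the same cells' preparation, so the library pairs them. The fit was tested on simulated data. Each p-value sets a class difference against the spread left between these 3 libraries, after the block takes out what all classes of a library share. That spread was estimated over all classes of a fit and moderated across genes. Intervals are exact 95% intervals and, like the floor of 3 counts, cover counting error only. The anterior Rgs5-Chgb-Slc18a2 sum holds 7 barcodes. Other alternatives varied the scaling, filters, class limits, depth, thinning, libraries and neurons with glial markers.

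Members and lists were chosen with earlier results of these data known. The text names called members, or the 6 highest and 6 lowest where over 12 were called, uncalled relatives, the 4 highest and 4 lowest region ratios, and at most 2 highest and 2 lowest called genes of each partner list. Further members are named so that all 36 are accounted for. No column belonged to another series (0).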

Additional observations from a re-analysis of the deposited data

How the results depend on the processing

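No member reversed its direction in a called result under any alternative run. Without the library block, the members called numbered 7 in Npy-low Ddah1, 4 in Nos1 and 0 in Edn3 neurons, against 21, 9 and 21 with it, and 26 with or without it in Rgs5-Chgb-Slc18a2 barcodes. Leaving out 1 library gave 13 to 26, 5 to 15, 6 to 25 and 25 members (in every such fit) in the same order of comparisons. Thinning every barcode left 15 members in the Rgs5-Chgb-Slc18a2 comparison. Posterior against anterior, 3 members past 1.5-fold became 1 with TMM factors and 0 in other Npy neurons. The cause of these changes was not tested. No paired analysis was possible for region because each section has 1 library.

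Over all genes, calls numbered 2649 in Npy-low Ddah1 neurons, and 651 without the block, 1626 thinned and 1384 without the posterior library. In Nos1 neurons they numbered 1044, and 278 without the block, 535 thinned, 1625 with no filter, 438 without the anterior and 630 without the posterior library. In Edn3 neurons they numbered 3064, and 24 without the block, 1641 thinned, 616 without the anterior, 741 without the posterior and 4962 without the mixed library, and 1572 without neurons of high glial markers. In Rgs5-Chgb-Slc18a2 barcodes they numbered 3371, and 794 thinned and 2213 without the posterior library. Leaving out the 5% deepest neurons gave 24, 11, 26 and 26 members called, and 3143, 1310, 4227 and 3338 of all genes. The set without neurons high in glial markers other than Ngfr was chosen after seeing the data.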
